A study of Mus musculus with 6 samples.

Results

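The AP-1 transcription factor genes are the genes for the Jun proteins (*Jun*, *Junb*, *Jund*), the Fos proteins (*Fos*, *Fosb*, *Fosl1*, *Fosl2*) and the related factors *Atf3* and *Batf3*. These 9 genes were chosen by name from 22380 protein-coding genes, and chromatin accessibility around them was compared in 3 mouse cell lines. The Pax6-HIGH line (β-TC3) is a pancreatic beta cell insulinoma, the Pax6-ON line (MV+) was grown out of lens epithelia of a C57BL6 mouse, and the Pax6-OFF line (RAG) was taken from a BALB/c mouse with a renal adenocarcinoma. All were kept in serum-containing medium without any treatment, none was authenticated, and each stands for its tissue as 1 immortalized line. Nuclei of Pax6-ON cells were released with more detergent than those of the other lines, a difference that cannot be told apart from the line. ATAC-seq, in which the Tn5 transposase cuts open DNA and tags it for sequencing, was done on 2 biological replicates per line, and both were pooled in a single peak call. No value below therefore has a replicate error and no difference between lines could be tested.

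AP-1 is a family of dimers, built from basic leucine zipper (bZIP) proteins of the Jun, Fos and ATF groups, that bind the DNA word TGANTCA, where N is any base. Many of the genes are immediate-early genes, which growth factors, serum and stress switch on within minutes through MAP kinases and preexisting factors. One of these is serum response factor, which binds the CArG box. In enhancers, AP-1 is known for opening chromatin together with cell type specific factors. An open start site shows that a promoter is accessible, not that the gene is transcribed, and in a bulk library a site open in fewer cells cannot be told apart from one that is less open in every cell.

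The call used 100254099 fragments and gave 28024 peaks in Pax6-HIGH cells, 130955836 fragments and 9821 peaks in Pax6-ON cells, and 102223606 fragments and 14022 peaks in Pax6-OFF cells. Pax6-ON cells thus had the fewest peaks from the deepest library. The lowest pileup of a called peak (the number of fragments over its summit, not scaled for depth) was 25, 30 and 25, so a site with fewer fragments could not be seen. Because of this, each peak is also given by its percentile, the percentage of peaks in the same line with a pileup no higher than its own. Of the markers of each tissue, the *Pax6* start site had a peak in Pax6-HIGH and Pax6-ON cells and none in Pax6-OFF cells, *Neurod1* had one in Pax6-HIGH cells alone, and *Pax2* and *Cdh16* in Pax6-OFF cells alone. Other markers went against the labels: the lens gene *Cryab* had a peak in Pax6-OFF cells alone, the kidney gene *Aqp1* in Pax6-HIGH cells alone, and the beta cell gene *Mafa* in all 3 lines. The lens gene *Prox1* had a peak in Pax6-HIGH (percentile 57.4) and Pax6-ON cells (2.14). So did the beta cell gene *Nkx6-1* (97.5 and 47.9). Most defining markers had none. A start-site peak was seen for 3 of 7 beta cell markers in Pax6-HIGH cells (insulin genes and *Pdx1* without), 2 of 6 lens markers in Pax6-ON cells (no crystallin gene) and 2 of 7 kidney tubule markers in Pax6-OFF cells. The same 2 lens markers, *Pax6* and *Prox1*, were open in Pax6-HIGH cells, so they did not set the Pax6-ON line apart from it.

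Start sites of the AP-1 genes were open mostly in Pax6-HIGH and Pax6-OFF cells. A start-site peak, one that overlapped an annotated transcript start or lay within 1 kb of it, was found for 7, 3 and 7 of the 9 genes in Pax6-HIGH, Pax6-ON and Pax6-OFF cells, respectively. The same was true of 46.5%, 21.5% and 36.1% of all protein-coding genes, so Pax6-ON cells had the fewest both among the AP-1 genes and in the genome. *Jun*, *Jund* and *Atf3* had a peak in all 3 lines (17.5% of all genes). *Fos*, *Fosb* and *Fosl2* had one in Pax6-HIGH and Pax6-OFF cells only (15.6% of all genes). *Batf3* was open in Pax6-HIGH cells only (11.1%), *Fosl1* in Pax6-OFF cells only (2.48%), and *Junb* had no start-site peak in any line (49.4%). No AP-1 gene was open only in Pax6-ON cells, alone or with 1 other line, patterns found for 1.06% of all genes (Pax6-ON alone), 2.32% (with Pax6-HIGH) and 0.563% (with Pax6-OFF).

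**Figure D1:**
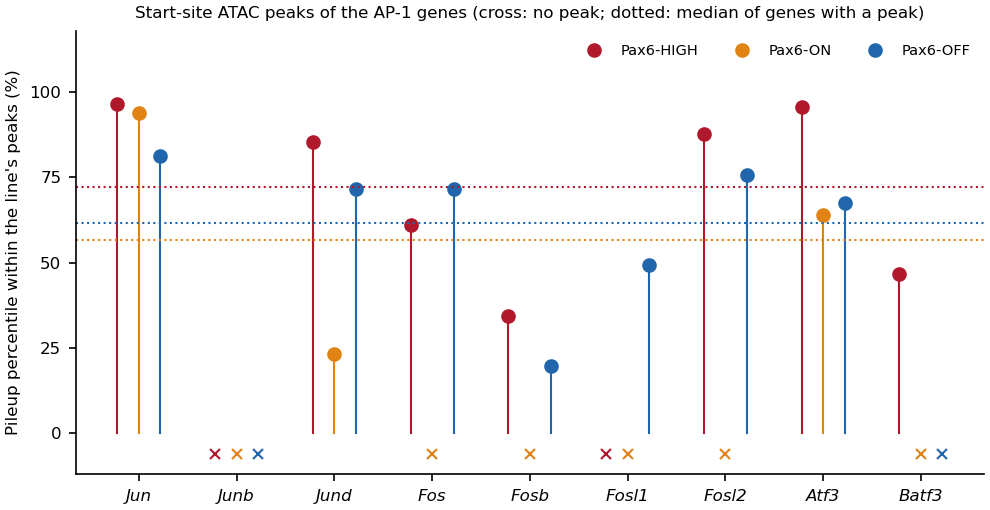
Pileup percentile of the start-site peak of each AP-1 gene (vertical axis, % of the peaks of the same line; crosses, no peak) in Pax6-HIGH, Pax6-ON and Pax6-OFF cells. Dotted lines give the median over all protein-coding genes with a start-site peak, at 72.2, 56.7 and 61.5 for the lines in this order; *Jun* was above it in every line and *Fosb* below it in both lines with a peak.

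The median percentile over the AP-1 genes with a peak was 85.4 for the 7 genes of Pax6-HIGH cells, 63.9 for the 3 genes of Pax6-ON cells and 71.5 for the 7 genes of Pax6-OFF cells, against 72.2, 56.7 and 61.5 over all genes with one. The order of the lines by these medians depended on the measure. Ranked by fold enrichment over the local background instead of by pileup, the medians were 54.6, 67.6 and 49.4. Each line was also cut to 9821 peaks, the full number of Pax6-ON cells, whose values this cut cannot change. The number of AP-1 genes with a start-site peak was then 4, 3 and 6 (Pax6-HIGH, Pax6-ON, Pax6-OFF), beside 28.0%, 21.5% and 30.8% of all genes. *Fos*, *Fosb* and *Batf3* lost their peak in Pax6-HIGH cells at this cut, and *Fosb* also in Pax6-OFF cells.

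*Jun* encodes c-Jun, the main DNA-binding partner of the Fos proteins, and had the strongest AP-1 start site in each line by pileup. Its gene lies at chr4:94715725-94718913 on the minus strand of mm9. The start-site peak held 199 fragments in Pax6-HIGH cells (percentile 96.5, fold enrichment 4.02), 144 in Pax6-ON cells (93.8, fold 5.32) and 79 in Pax6-OFF cells (81.4, fold 3.95). The Pax6-HIGH peak was wide, at 1525 bp, where the Pax6-ON peak spanned 892 bp and the Pax6-OFF peak 703 bp. Its local background was also high, at 48.8 fragments against 26.3 and 19.3, and by fold enrichment it stood at percentile 54.6 rather than 96.5. Summits lay 154, 132 and 7 bp upstream of the 5′ end. Pax6-ON cells had a further peak with its summit 1136 bp upstream (66 fragments, percentile 58.0), over DNA that the wide Pax6-HIGH peak also covered. On chromosome 4, peaks shared by all lines had a median pileup 0.75 times that of all autosomes in Pax6-OFF cells. Ranked within that chromosome, *Jun* stood at 98.0, 95.1 and 88.4 in the 3 lines.

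The *Jun* promoter is known for an AP-1-like word, TGACATCA, through which c-Jun acts on its own gene. This word was looked for after the peaks had been seen. It lay 45 bp upstream of the 5′ end, inside the start-site peak of all 3 lines, and was closest to the summit in Pax6-OFF cells (34 bp) and farther off in Pax6-ON (91 bp) and Pax6-HIGH cells (113 bp). Among the promoters of 22350 protein-coding genes (250 bases before to 50 after the 5′ end, mm9) 3.01% held the word on either strand. The stretch is shown because the word lay in a start-site peak of every line, with the word in capitals, from chr4:94718921-94718988 on the minus strand (mm9 reference).
Jun start site: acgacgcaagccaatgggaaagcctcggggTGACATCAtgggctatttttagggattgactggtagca

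*Junb* encodes JunB, a Jun protein that binds the same word and often weakens c-Jun. No peak lay within 1 kb of its start, but this result hung on the distance chosen. In Pax6-HIGH cells the edge of the nearest peak was 1293 bp upstream (45 fragments, fold 2.36, percentile 37.8) and in Pax6-OFF cells 1085 bp upstream (46 fragments, fold 2.60, percentile 43.3). With a limit of 2 kb *Junb* counted as open in both lines. Another peak lay just past the 3′ end of the gene, with its summit 2172 bp from the 5′ end in Pax6-HIGH cells (83 fragments, percentile 74.0) and 2096 bp in Pax6-OFF cells (50 fragments, percentile 50.9). The gene thus lay between flanking peaks in both of these lines, while in Pax6-ON cells the nearest peak was 75.3 kb away.

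Each flanking site of *Junb* held a CArG box, the binding word of serum response factor. The upstream box was 1450 bp before the 5′ end (35 bp from the Pax6-HIGH and 151 bp from the Pax6-OFF summit). The downstream box was 2085 bp after it (82 and 6 bp from the summits). Both stretches are shown with the box in capitals, because they mark open sites beside a gene whose own start site had no peak. They come from chr8:87504028-87504097 and chr8:87500493-87500562, both on the minus strand.
Junb upstream site: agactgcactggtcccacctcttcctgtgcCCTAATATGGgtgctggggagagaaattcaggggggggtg
Junb downstream site: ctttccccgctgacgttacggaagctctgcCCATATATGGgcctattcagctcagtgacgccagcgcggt

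Most of the remaining *Junb* peaks lay near other genes. In Pax6-HIGH cells the peaks were at *Rnaseh2a* (64 fragments), 7248 bp upstream (39 fragments) and at *Hook2* (51 fragments). Another (32 fragments) had its summit in untranslated exons of both *Prdx2* and *Rnaseh2a*. In Pax6-OFF cells a peak lay at *Hook2* (53 fragments). A further CArG box, 11675 bp upstream at *Hook2*, was inside the Pax6-HIGH peak only, 115 bp from its summit.

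*Jund* encodes JunD, the Jun protein found in most resting cells. Its gene (chr8:73221638-73224515, plus strand) had a start-site peak in every line at the inner of its 2 annotated starts. In Pax6-HIGH and Pax6-OFF cells this peak also lay within 1 kb of a start of *Gm11175*, without covering it. The peak held 112 fragments in Pax6-HIGH cells (percentile 85.4, fold 4.59), 46 in Pax6-ON cells (23.2, fold 3.10) and 66 in Pax6-OFF cells (71.5, fold 3.70). In Pax6-ON cells it was the weakest of the 3 open AP-1 start sites, and by pileup also below the line's median of 56.7 for genes. The cyclic AMP response word TGACGTCA, which dimers of Jun and ATF proteins bind, lay 996 bp after the outer start in the peak of all 3 lines, and in 2.56%, 2.23% and 3.11% of all peaks of the Pax6-HIGH, Pax6-ON and Pax6-OFF lines. It was 152 to 295 bp from the summits.

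A further *Jund* peak was called in Pax6-HIGH cells alone, 13247 bp upstream (51 fragments, percentile 46.8, fold 4.07). An AP-1 word, TGAGTCA, lay 20 bp from its summit. It is printed, with the word in capitals, as 1 of 2 Pax6-HIGH peaks of these genes with an AP-1 word near the summit (chr8:73208291-73208491, plus strand).
Jund upstream site: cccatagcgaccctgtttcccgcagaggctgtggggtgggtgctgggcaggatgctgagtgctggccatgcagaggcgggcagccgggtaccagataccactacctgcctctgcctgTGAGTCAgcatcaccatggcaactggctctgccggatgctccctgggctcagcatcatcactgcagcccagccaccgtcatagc

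*Fos* encodes c-Fos, which binds DNA only with a Jun partner and is the textbook immediate-early gene. Its start site (gene at chr12:86814840-86818223, plus strand) had 64 fragments in Pax6-HIGH cells (percentile 60.9, fold 3.88) and 66 in Pax6-OFF cells (71.5, fold 4.16). There was no peak in Pax6-ON cells, where the nearest was 22.7 kb downstream of the closest start (47 fragments). The peaks differed in place: the Pax6-HIGH summit lay 10 bp and the Pax6-OFF summit 261 bp upstream of the 5′ end. The CArG box 309 bp upstream, through which serum response factor is known to drive *Fos*, was inside both peaks, 44 bp from the Pax6-OFF summit and 295 bp from the Pax6-HIGH summit. The sequence around the Pax6-OFF summit is shown for this box, in capitals (chr12:86814479-86814679, plus strand).
Fos start site: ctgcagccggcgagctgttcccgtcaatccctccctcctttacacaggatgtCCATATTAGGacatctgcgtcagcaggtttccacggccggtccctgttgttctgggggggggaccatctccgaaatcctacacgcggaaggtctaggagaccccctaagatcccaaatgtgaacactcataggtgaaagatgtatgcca

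Stronger peaks lay away from the *Fos* start in the same lines. One was 18.7 kb upstream, with 93 fragments in Pax6-HIGH cells (percentile 78.8) and 96 in Pax6-OFF cells (percentile 88.5). The other was 12.2 kb downstream of the 5′ end, with 85 (percentile 75.0, fold 5.82) and 69 fragments (percentile 74.2, fold 5.78). All these peaks had a higher pileup and fold than the *Fos* start-site peak of the same line. Peaks shared by all lines on chromosome 12 had a median pileup 1.12 (Pax6-HIGH) and 1.36 times (Pax6-OFF) that of all autosomes, and the part of this in the *Fos* values was not tested. Ranked within the chromosome, the upstream site stood at 75.4 and 87.7. A weaker peak 1554 bp upstream was called in Pax6-OFF cells only (38 fragments, percentile 24.5). The downstream site held another CArG box, 35 and 30 bp from the summits of Pax6-HIGH and Pax6-OFF cells, and is shown from chr12:86827034-86827103 on the plus strand.
Fos downstream site: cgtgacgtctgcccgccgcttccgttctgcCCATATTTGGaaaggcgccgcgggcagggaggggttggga

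*Fosb* encodes FosB, another serum-inducible Fos protein, and had the weakest AP-1 start site by pileup in both lines where it was open. The peak (gene at chr7:19888070-19895394, minus strand) had 43 fragments in Pax6-HIGH cells (percentile 34.3, fold 3.03) and 36 in Pax6-OFF cells (19.6, fold 3.01). The summits were 360 and 361 bp upstream of the 5′ end, and the peak edges 105 and 69 bp from it. In Pax6-HIGH cells a peak in a *Fosb* intron was stronger (60 fragments, percentile 57.4), and so it was in Pax6-OFF cells (40 fragments, percentile 29.5). Pax6-HIGH cells also had peaks 10.0 kb upstream (52 fragments) and at *Rtn2* (56 fragments). In Pax6-ON cells the nearest peak was 318.5 kb away, at *Relb*. As at *Fos*, a CArG box lay inside both start-site peaks, 272 bp upstream of the 5′ end and 93 and 94 bp from the summits (chr7:19895654-19895854, minus strand, box in capitals).
Fosb start site: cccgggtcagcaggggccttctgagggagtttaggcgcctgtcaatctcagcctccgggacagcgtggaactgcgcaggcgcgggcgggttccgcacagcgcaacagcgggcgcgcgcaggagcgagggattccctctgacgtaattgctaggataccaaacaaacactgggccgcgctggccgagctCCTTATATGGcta

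*Fosl1* encodes Fra-1, a Fos protein without the long activation domain of c-Fos, and is itself a gene that AP-1 regulates. It was the one member with a start-site peak in Pax6-OFF cells alone (gene at chr19:5447703-5455945, plus strand), a pattern of 2.48% of genes. The peak had 49 fragments, a fold enrichment of 3.80 and a percentile of 49.2, with its summit 23 bp after the 5′ end. In Pax6-HIGH cells the closest peak was 9466 bp away at *Ccdc85b* (36 fragments, percentile 19.8), and in Pax6-ON cells 276.9 kb away. Shared peaks of chromosome 19 had a median pileup 0.757 times that of all autosomes in Pax6-HIGH cells. This ratio was 0.985 for Pax6-ON and 1.02 for Pax6-OFF cells, and its part in the *Fosl1* pattern was not tested. Pax6-OFF cells had upstream peaks with summits 17.6 kb (27 fragments, percentile 1.31) and 14.2 kb (46 fragments, percentile 43.3) from the 5′ end, and a peak at *Efemp2* (38 fragments). The 17.6 kb peak was near the lower limit of what was called and was lost at the stricter q of 0.001. Its summit lay at its downstream edge, so part of the stretch printed for it below lies outside the called peak.

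AP-1 words were found at more sites of *Fosl1* than of any other member. Its Pax6-OFF peaks held 5 of them. In the 14.2 kb site a TGACTCA lay 1 bp and another 23 bp from the summit. In the 17.6 kb site a TGAGTCA lay 21 bp and a TGAATCA 105 bp from the summit, and in the start-site peak a TGAGTCA lay 174 bp from it. The sites are shown because each was open in Pax6-OFF cells only and both upstream sites carried the family's own word near the summit (in capitals). The upstream sites come from chr19:5429974-5430174 (17.6 kb) and chr19:5433443-5433643 (14.2 kb). The start-site stretch, chr19:5447626-5447702, is cut at the first transcribed base and holds no word searched for. All are on the plus strand.
Fosl1 17.6 kb site: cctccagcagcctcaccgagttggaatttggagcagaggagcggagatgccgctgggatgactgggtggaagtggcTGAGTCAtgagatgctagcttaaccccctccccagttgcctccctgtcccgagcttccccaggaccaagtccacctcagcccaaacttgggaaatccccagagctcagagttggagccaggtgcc
Fosl1 14.2 kb site: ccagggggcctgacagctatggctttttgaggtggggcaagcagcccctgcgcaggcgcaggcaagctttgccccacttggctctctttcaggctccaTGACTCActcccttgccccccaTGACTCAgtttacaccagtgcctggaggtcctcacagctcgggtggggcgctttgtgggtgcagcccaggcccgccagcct
Fosl1 start site: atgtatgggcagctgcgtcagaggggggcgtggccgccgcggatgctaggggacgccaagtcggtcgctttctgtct

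*Fosl2* encodes Fra-2, the other short Fos protein. Its only peaks were at the start site (gene at chr5:32438845-32460204, plus strand), with 121 fragments in Pax6-HIGH cells (percentile 87.7, fold 4.34) and 71 in Pax6-OFF cells (75.7, fold 3.55). By pileup it followed *Jun* and *Atf3* in Pax6-HIGH cells and *Jun* alone in Pax6-OFF cells. In Pax6-ON cells the nearest peak was 322.4 kb away. The summits lay 697 and 691 bp upstream of the annotated 5′ end, farther from the nearest annotated start than at any other member, and the peak edges 383 and 398 bp from it. An AP-1 word, TGACTCA, lay 618 bp upstream of the 5′ end, 82 and 76 bp from the summits. It is shown in capitals as the AP-1 word near a start-site summit in both lines (chr5:32438048-32438248, plus strand).
Fosl2 start site: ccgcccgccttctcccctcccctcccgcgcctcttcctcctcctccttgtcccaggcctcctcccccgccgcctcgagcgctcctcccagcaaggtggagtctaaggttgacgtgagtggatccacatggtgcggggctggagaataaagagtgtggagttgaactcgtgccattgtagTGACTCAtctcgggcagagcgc

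*Atf3* encodes a stress-induced ATF protein that pairs with Jun proteins. Its start site (gene at chr1:192994175-193007219, minus strand) was open in all 3 lines, with no other peak in its window. The peak had 182 fragments in Pax6-HIGH cells (percentile 95.6), 71 in Pax6-ON cells (63.9) and 62 in Pax6-OFF cells (67.6). Its fold enrichment, 6.14 in Pax6-HIGH, was the highest of any AP-1 start site in that line, and in Pax6-OFF cells it was 5.32, again the highest. The summits lay close together, 158, 127 and 156 bp upstream of the 5′ end. Shared peaks of chromosome 1 had a median pileup 1.44 times that of all autosomes in Pax6-HIGH cells, while this ratio was 1.00 for Pax6-ON and 0.917 for Pax6-OFF cells. Ranked within that chromosome the *Atf3* peak stood at 92.4, 61.9 and 68.1, with the Pax6-HIGH value still the highest.

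*Batf3* encodes a small bZIP protein, without an activation domain, that pairs with Jun and is known from dendritic cells. Its start site (gene at chr1:192922293-192932822, plus strand) had a peak in Pax6-HIGH cells only, with 51 fragments, a fold of 3.64 and a percentile of 46.8. A weak peak lay 27.8 kb from the 5′ end in the same line (34 fragments, percentile 15.2). The nearest peak was 71.8 kb away in Pax6-OFF cells, at *Mfsd7b*, and 67.1 kb away in Pax6-ON cells. Like *Atf3*, *Batf3* lies on chromosome 1, where shared peaks had 1.44 times the median pileup of all autosomes in Pax6-HIGH cells. The part of this in the *Batf3* pattern was not tested. The start-site stretch up to the first transcribed base (chr1:192922196-192922292, plus strand) is shown as the one AP-1 promoter open in Pax6-HIGH cells alone, and held none of the words searched for.
Batf3 start site: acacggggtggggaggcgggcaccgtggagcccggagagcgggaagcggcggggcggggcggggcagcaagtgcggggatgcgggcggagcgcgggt

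**Figure D2:**
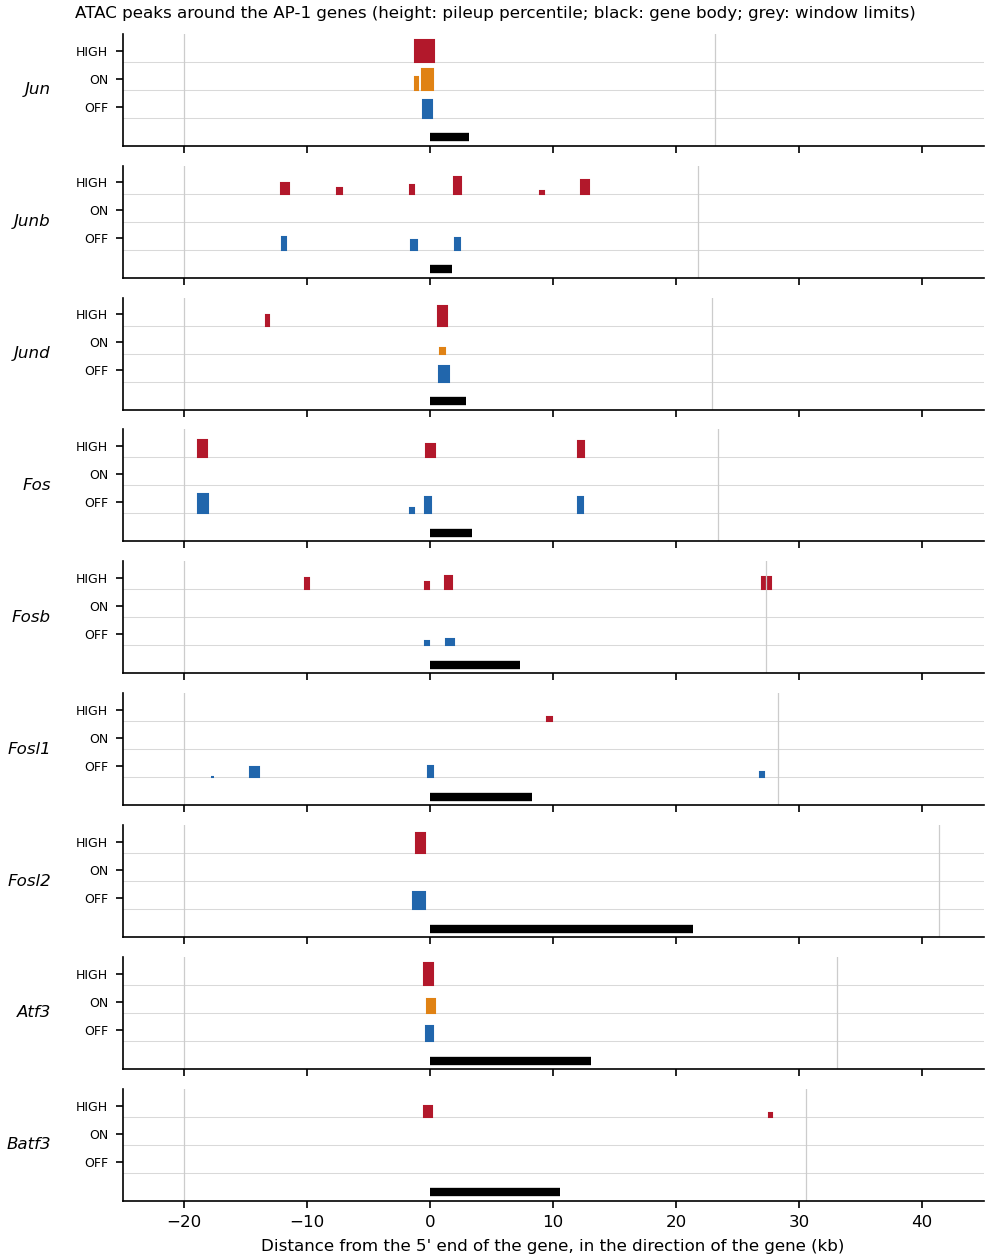
ATAC-seq peaks around the 9 AP-1 genes, drawn to scale by distance from the 5′ end in the direction of the gene (kb); the height of a peak is its pileup percentile, black bars are gene bodies and grey lines the limits of the windows, 20 kb beyond each gene. Pax6-ON cells had 4 peaks in the 9 windows, Pax6-HIGH cells 21 and Pax6-OFF cells 17.

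Around the 9 genes (gene body and 20 kb on either side), 21 peaks were called for Pax6-HIGH, 4 for Pax6-ON and 17 for Pax6-OFF cells. Of these, 14, 1 and 10 were not start-site peaks of the member. They were found for 6, 1 and 4 members, against 52.5%, 21.1% and 36.3% of all protein-coding genes, so the members' share in Pax6-ON cells, 1 of 9, was not above that of the genome. Of the same peaks, 9, 1 and 8 were at no other gene's start site either. At 9821 peaks per line, 4, 1 and 6 of the 14, 1 and 10 remained, with fewer in Pax6-HIGH than in Pax6-OFF cells. The share of all genes with such a peak was not counted at this number. Start-site peaks of all genes had the same order there, at 28.0% and 30.8%. The peaks fell in 26 separate places, and 12 of these were open in at least 2 lines (7 at the equal number of peaks). Of the 8 start sites, 3 were shared by all lines and 3 by Pax6-HIGH and Pax6-OFF cells. Of the 18 other places, 6 were shared by Pax6-HIGH and Pax6-OFF cells, 8 were open in Pax6-HIGH cells only and 4 in Pax6-OFF cells only. Among all peaks at no annotated start site, 14317 of 17155 in Pax6-HIGH and 2867 of 6047 in Pax6-OFF cells were open in that line only. These are unlike the 18 places: they are counted as peaks, and peaks at any gene's start site are left out. Some of the 18 places lie at the start sites of other genes, and no share was counted for a matching set. The single other peak of Pax6-ON cells, at *Jun*, overlapped a start-site peak of another line. With windows of 50 kb Pax6-ON cells had 4 such peaks. Those added were at *Fos* (47 fragments) and at *Jun*, 26.1 kb (82 fragments) and 50.6 kb (89 fragments, with an AP-1 word at the summit) after its 5′ end.

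In the peaks of these genes the CArG box was counted more often than in peaks at large. Over whole peaks it was found in 6 of 21 Pax6-HIGH and 5 of 17 Pax6-OFF peaks, all of them at *Fos*, *Fosb* and *Junb*, against 2.30% and 1.92% of all peaks of those lines. Peaks of both lines often cover the same DNA, so these counts are not independent. None of the 4 Pax6-ON peaks held one, where 1.81% of all peaks did. The AP-1 word was found in 2 of 21, 0 of 4 and 4 of 17 peaks, against 17.7%, 31.1% and 17.7% of all peaks. In promoter windows from 250 bases before to 50 after the 5′ end, the AP-1 word was present for 6.93% and the CArG box for 1.47% of 22350 genes, and for no member. The words of the members given above lay outside these windows, apart from that of *Jun*. Words were searched on both strands, and none of them contains another. A match is only a description of the DNA and shows no binding.

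Pax6-ON cells had the fewest start-site peaks, both among the AP-1 genes (3 of 9) and among all genes (21.5%). They had the highest share of peaks with the AP-1 word. An AP-1 word lay within 100 bp of the summit in 9.56% of all Pax6-HIGH peaks, 24.6% of Pax6-ON and 12.01% of Pax6-OFF peaks. At start-site peaks of any gene the shares were low in all lines, at 3.64%, 4.76% and 3.62%. In distal peaks, those at no annotated start site, they were 13.2% (95% Wilson interval 12.7 to 13.8, 17155 peaks), 43.0% (41.6 to 44.4, 5016 peaks) and 22.8% (21.7 to 23.9, 6047 peaks). Windows of equal length 2 kb beside the distal summits held the word in 5.88%, 6.03% and 5.80%. The intervals cover counting error over peaks only, and peaks are not biological replicates. At the same number of peaks per line, a comparison chosen after the data had been seen, the distal shares were 17.7%, 43.0% and 27.2%.

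**Figure D3:**
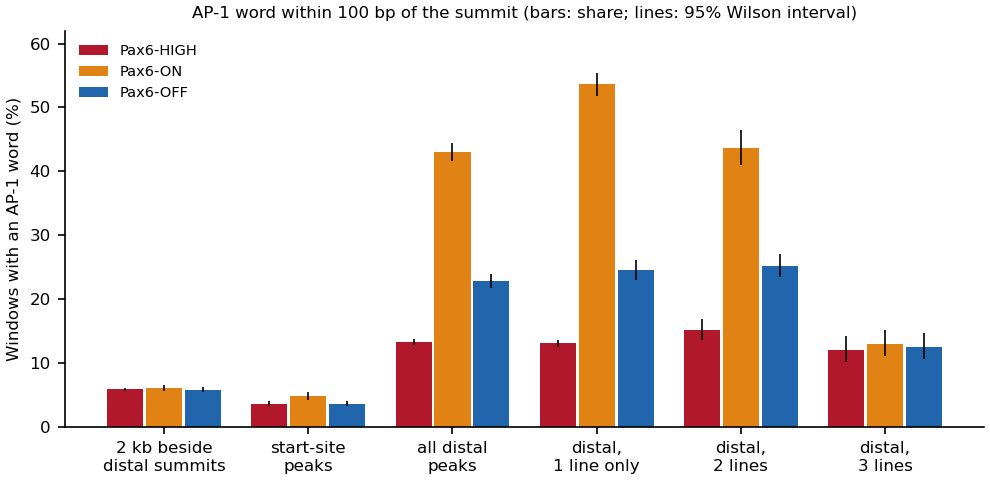
Share of windows with an AP-1 word within 100 bp of the summit (vertical axis, %), by kind of peak, in Pax6-HIGH, Pax6-ON and Pax6-OFF cells; bars are shares and lines are 95% Wilson intervals for counting error over peaks. Distal peaks of Pax6-ON cells reached 43.0%, and 53.6% where the peak was called in that line only. Distal peaks called in all 3 lines lay between 12.1% and 12.9%, over largely the same DNA in each line.

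Distal peaks called in 1 line only held the word in 13.1% of cases for Pax6-HIGH, 53.6% (interval 51.8 to 55.5) for Pax6-ON and 24.6% for Pax6-OFF cells. Those shared by 2 lines held it in 15.1%, 43.7% and 25.2%, and those shared by all 3 in 12.1%, 12.9% and 12.5%. Sites shared by all 3 lines are overlapping places, so the DNA searched was largely the same in each line. Their shares could therefore hardly differ, and the overlap of their intervals says nothing about the lines. In Pax6-ON cells the share also moved with strength, from 27.7% to 43.6%, 50.3% and 50.3% over 4 equal groups of distal peaks from low to high pileup. In Pax6-HIGH cells it went from 9.07% to 17.0%, and in Pax6-OFF cells they were 17.5%, 26.0%, 27.4% and 20.2%. The cyclic AMP response word was rare at distal summits, in 0.775%, 0.478% and 0.397%.

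**Figure D4:**
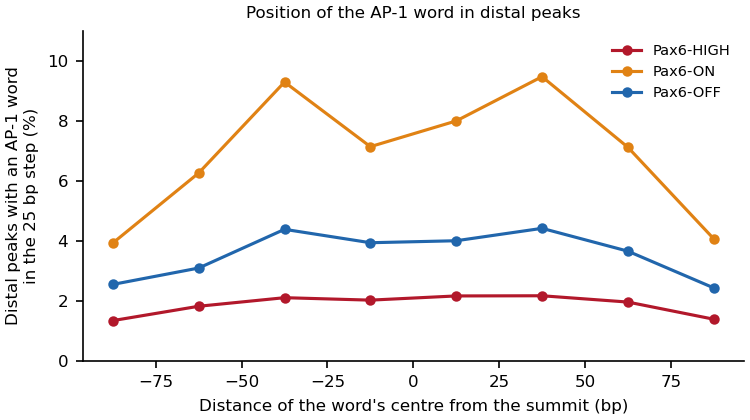
Share of distal peaks with the centre of an AP-1 word in each 25 bp step around the summit (vertical axis, %; horizontal axis, distance from the summit in bp) in Pax6-HIGH, Pax6-ON and Pax6-OFF cells. In Pax6-ON cells the share was 9.29% and 9.47% between 25 and 50 bp on either side of the summit, 7.14% and 7.99% within 25 bp of it, and 3.93% and 4.07% at the ends.

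Within these windows the word was counted more often near the summit than at the ends. A word had to lie wholly inside the window, so the outermost steps held fewer possible positions and were lower partly for that reason. In Pax6-ON cells 9.29% of distal peaks had one 25 to 50 bp to the left and 9.47% the same distance to the right, while 3.93% and 4.07% had one in the outermost steps. A dip over the summit itself was seen in Pax6-ON cells (7.14% and 7.99%) and was smaller in Pax6-OFF cells (3.94% and 4.00%, beside 4.38% and 4.42%).

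Companion lists of genes that work with AP-1 were read against all protein-coding genes, of which 46.5%, 21.5% and 36.1% had a start-site peak, and against the same count at 9821 peaks per line. Of 18 other bZIP partners found in the annotation, a start-site peak was found for 16 in Pax6-HIGH cells, 6 in Pax6-ON cells and 16 in Pax6-OFF cells (9, 6 and 15 at equal numbers). *Atf2*, *Crem*, *Maf*, *Mafa*, *Nfe2l1* and *Nfe2l2* were open in all lines and *Batf* in none. *Atf6* was open in Pax6-HIGH cells alone, *Maff* in Pax6-OFF cells alone, and others, among them *Batf2*, *Jdp2*, *Atf1*, *Atf4*, *Atf5*, *Creb1*, *Mafg* and *Mafk*, in both of these lines. Of 19 genes that signal to AP-1, the kinases, ternary complex factors and phosphatases, 19, 5 and 16 were open. At equal numbers these were 12, 5 and 14, which turned the order of Pax6-HIGH and Pax6-OFF cells. *Mapk9* (JNK2), *Map2k4*, *Map2k7* and *Dusp6* were open in all lines, and *Mapk8* (JNK1) had no peak in Pax6-ON cells but stood at percentile 86.5 for Pax6-HIGH and 99.1 for Pax6-OFF cells. *Dusp5*, a phosphatase of ERK, was open in Pax6-HIGH and Pax6-ON cells only, and *Mapk10* and *Elk3* in Pax6-HIGH cells only. *Srf*, the gene for serum response factor, was open in Pax6-HIGH and Pax6-OFF cells, as were, among others, *Mapk3*, *Mapk14*, *Map2k1*, *Map2k2*, *Map3k1*, *Elk1*, *Elk4*, *Dusp1* and *Dusp4*.

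Of 13 other immediate-early genes, 8, 4 and 7 were open in the lines in this order (5, 4 and 5 at equal numbers). *Egr2*, *Nr4a1*, *Myc* and *Klf6* were open in all lines, *Klf4* and *Btg2* in Pax6-HIGH and Pax6-OFF cells, *Ier5* and *Zfp36* in Pax6-HIGH cells, and *Ier3* in Pax6-OFF cells. Of 13 genes known as AP-1 targets, 3, 1 and 4 were open (2, 1 and 1 at equal numbers), and 7 were open in no line. *Cd44* was the target open in Pax6-ON cells (percentile 33.7) and was also open in Pax6-OFF cells. *Mmp13* and *Hmox1* were open in Pax6-HIGH cells, *Plaur* and *Spp1* in Pax6-OFF cells, and *Vegfa* in both.

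**Figure D5:**
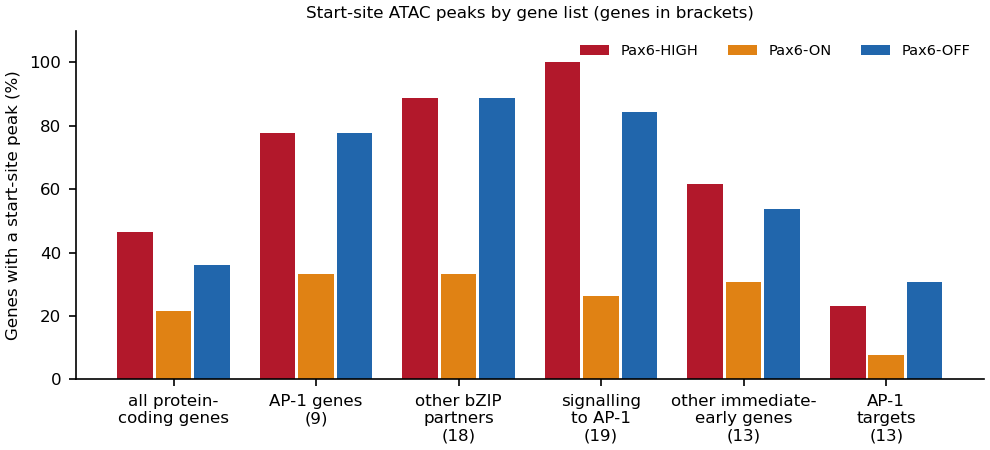
Share of genes with a start-site peak (vertical axis, %) among all protein-coding genes, the 9 AP-1 genes and the companion lists (number of genes in brackets) in Pax6-HIGH, Pax6-ON and Pax6-OFF cells. All 19 signalling genes had a peak in Pax6-HIGH cells and 5 of them in Pax6-ON cells, beside 46.5% and 21.5% of all genes.

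The genes whose start-site pattern was closest to each AP-1 gene were found by the sum over the 3 lines of the absolute difference in percentile, with 0 where there was no peak. *Mgat1* (2.23 points) and *Asah1* (2.43) were closest to *Jun*, and *Ppp2r5c* (2.58) and *Pknox1* (3.51) to *Jund*. Among those closest to *Atf3* was *1700104B16Rik* (3.57). The patterns of *Jun*, *Jund* and *Atf3* had 74, 24 and 30 genes within 10 points, so that of *Jund*, high in Pax6-HIGH and low in Pax6-ON cells, had the fewest. *Dnalc4* (0) and *Zfp865* (1.66) were closest to *Fos*, *Sgsm2* (1.76) and *Ap2b1* (1.77) to *Fosb*, and *Grpel1* (0.806) and *Cep192* (0.974) to *Fosl2*. *AI467606* and *Clk3* had the same percentiles as *Fosl1*, and *6430531B16Rik* and *A930016O22Rik* the same as *Batf3*, a pattern with 685 genes within 10 points. Likeness rests on 3 values from 3 lines, and pileups of few fragments often tie.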

How the data were processed

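ATAC-seq had been done on 6 libraries, 2 biological replicates of each of 3 cell lines. The authors trimmed reads with Trim Galore 0.4.1, aligned them to mm9 with Bowtie2 2.2.6, handled alignments with SAMtools 1.6, and pooled both replicates of a line in 1 MACS2 2.1.1 call at a q-value limit of 0.05, with whole fragments, no control library and no shift for the Tn5 cut. This can widen peaks and move summits. Whether duplicates were removed first is not clear. The deposited pileup is a signal, the fragments over the summit, not scaled for depth. The fold enrichment, as deposited, is a ratio of this pileup to the local background, each with 1 added, and the background given above was worked back from it. The deposited significance is the authors' −log10 q. Both deposited files of a line held the same peaks, so 1 was used.

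Peaks were read with pandas 2.3.3 and NumPy 2.4.6 in Python 3.11.15 and drawn with matplotlib 3.10.9; intervals used SciPy 1.17.1. Genes came from GENCODE M1 on NCBIM37, the assembly of mm9, and no peak passed a chromosome end. Peaks in the gene body or 20 kb beyond it were counted, as start-site peaks within 1 kb of a transcript start. Distal peaks were those at no start site of any annotated gene. Words were searched within 100 bp of the summit and in whole peaks, leaving out peaks on chromosome Y, mitochondrial DNA and unplaced sequence. Steps were tested on simulated data. With 1 pooled call per line no test between lines was run.

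Named genes were the members, companion genes open in 1 or 2 lines, and the 2 most alike genes per member. A few genes under this rule are not reported here. Members and lists were chosen with earlier results of these data known. Alternatives were a stricter q of 0.001, equal numbers of peaks, other windows and limits, other ranks, and another word distance. The paper's other assays were not analysed here.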

Additional observations from a re-analysis of the deposited data

How the results depend on the processing

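Of 81 alternative values, 49 stayed close to those reported (counts within 1.5 times, shares and percentiles within the 95% Wilson interval) and 32 moved. For the members' median percentiles this interval was computed over all peaks of the line, so it is narrow and does not measure the spread over the members. Every percentile alternative was counted as moved by it, also small changes such as 85.4 to 83.5 in Pax6-HIGH cells. The equal number of 9821 peaks was the full Pax6-ON number, so this alternative could not move any Pax6-ON value. The 49 include these fixed values. The 81 values are counts and shares without a sign, so none could reverse, but the order of lines did turn. At equal numbers Pax6-OFF passed Pax6-HIGH cells in other peaks (6 against 4) and signalling genes (14 against 12). Start-site peaks of all genes turned in the same way, to 30.8% for Pax6-OFF against 28.0% for Pax6-HIGH cells. By fold enrichment Pax6-ON cells had the highest median percentile. No paired analysis was possible because both replicates of a line were pooled in 1 call, and for the same reason no replicate could be left out. With an equal number of 9821 peaks per line, Pax6-HIGH cells had 4 AP-1 genes with a start-site peak, 4 other peaks in the windows, 1 window peak with an AP-1 word at the summit, a share of 8.88% of all peaks with the word, and 9 bZIP partners, 12 signalling and 5 immediate-early genes open, while Pax6-OFF cells had 6 other peaks and 1 open AP-1 target, and 7 places were shared between lines. Distal shares at this number, an alternative added after the data had been seen, were 17.7% for Pax6-HIGH and 27.2% for Pax6-OFF cells. Windows of 10 kb gave 8 other Pax6-HIGH and 5 other Pax6-OFF peaks, and windows of 50 kb gave 33, 4 and 22 in the 3 lines. A start-site limit of 2 kb left 0 other peaks in Pax6-ON cells, and leaving out peaks at other genes' start sites left 9 in Pax6-HIGH cells. The members' median percentile in Pax6-HIGH, Pax6-ON and Pax6-OFF cells was 54.6, 67.6 and 49.4 by fold enrichment, 83.5, 61.9 and 68.1 within the same chromosome, and 71.0, 57.8 and 62.5 among gene start-site peaks. With 50 bp on either side of the summit, 1 Pax6-HIGH window peak held the AP-1 word and the shares of all peaks were 5.37%, 16.1% and 7.33%. Apart from what each alternative's own construction removes, the cause was not tested. In the alternatives that could change it, the number of AP-1 genes with a start-site peak in Pax6-ON cells stayed at 3. Pax6-ON cells also kept the highest share of peaks with the AP-1 word in every alternative run on that share. Sites under 25 to 30 fragments could not be called at this depth.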
